A study of Mus musculus with 23 samples.

Results

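The COP9 signalosome (CSN) removes the ubiquitin-like protein Nedd8 from cullins, the scaffold proteins of a large family of ubiquitin ligases. Conjugation of Nedd8 switches such a ligase on, and the CSN, by cutting Nedd8 off again, lets the cullin release its substrate receptor and take up another. The complex resembles the lid of the proteasome and the translation initiation factor eIF3 in its architecture. Its subunits carry either an MPN domain (Cops5 and Cops6) or a PCI domain (Gps1, Cops2, Cops3, Cops4, Cops7a or Cops7b, and Cops8), and the small acidic Cops9 has neither. Cops7a and Cops7b are alternative subunits encoded by separate genes. The transcripts of these 10 genes, chosen by name from the 56941 genes of the count tables, were compared between CRE- and RFP-expressing primary hippocampal neurons, and all 10 passed the filter on low counts.

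The neurons came from newborn homozygous Nedd8cKO mice, in which loxP sites flank exons 2 and 3 of *Nedd8*, so that RFP control neurons carried the floxed alleles too. Lentivirus for RFP or CRE-RFP was added at DIV1. RNA was taken on day 12 by the labels, while the methods name day 13. The Synapsin1 promoter of the virus drives expression in neurons, and the cultures also held transcripts of glia, in which it is not meant to act. Of 23 libraries (12 CRE, 11 RFP), the comparison used 21, 11 CRE and 10 RFP, whose counts assigned to genes summed to between 7430401 and 17112815. Libraries are named by group and a pair of numbers, as in CRE 1-3, and come from 3 biological replicates (animals or cultures), which the first number appears to mark, although no source says so in words. Adjusted p-values come from the quasi-likelihood test of edgeR, corrected by Benjamini-Hochberg over every gene that was tested. Libraries with the same first number would then be repeats of 1 biological replicate, so these p-values measure the spread between libraries and may be too small for a comparison of 3 against 3, and values from counts summed per first number are given beside the calls.

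Levels in single libraries are given as TMM-scaled CPM (counts of a gene relative to the library's counts over genes that passed the filter, multiplied by its TMM factor). *Nedd8* itself (GRCm39 chr14:55899715-55910069) lay between 5.92 and 18 CPM in the CRE libraries (median 12.1, n = 11) and between 44.1 and 76.0 CPM in the RFP libraries (median 62.4, n = 10). The groups did not overlap. In edgeR the level fell by 81.6%, a log2 fold change of -2.44 ± 0.17 (SE, adjusted p = 6.98e-11). Between 75 and 195 *Nedd8* reads per CRE library were still counted.

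Of the 10 CSN subunits, *Cops9* and *Gps1* were lower in Nedd8-deficient neurons and 0 were higher at an adjusted p under 0.05, in edgeR and DESeq2 alike, and the same 2 had an unadjusted p under 0.05. *Cops9* fell by 0.42 and *Gps1* fell by 0.28 on the log2 scale, and the *Gps1* call stood at the threshold (adjusted p = 0.0497). With counts summed per first number, 3 CRE against 3 RFP, *Gps1* was called (adjusted p = 0.0376) and *Cops9* was not (0.0713). Across all 14488 genes tested, 30.2% passed in either direction and 13.8% were lower in CRE, so 2 of 10 subunits is a share near the background. The 10 fold changes ran from -0.42 to 0.10 with a median of -0.11, beside a median of 0.02 over all genes. The 95% intervals of all 10 stayed within a 2-fold change in either direction, and those of 8 stayed within 1.5-fold. Their median absolute log2 fold change was 0.13, against 0.26 for the 6822 genes whose mean CPM lay in the range of the subunits. The groups overlapped for all 10 subunits, while they did not for 4.72% of the genes tested.

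Summed over the 10 subunits, the level was 508 CPM in the lowest and 625 CPM in the highest CRE library (median 561), against 550 and 648 CPM for RFP (median 601). The mean was 556 ± 32.4 CPM (SD, n = 11) in CRE and 600 ± 31.1 CPM (SD, n = 10) in RFP, and the ranges overlapped. In bulk RNA, fewer cells of a type and less RNA per cell cannot be told apart.

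**Figure D1:**
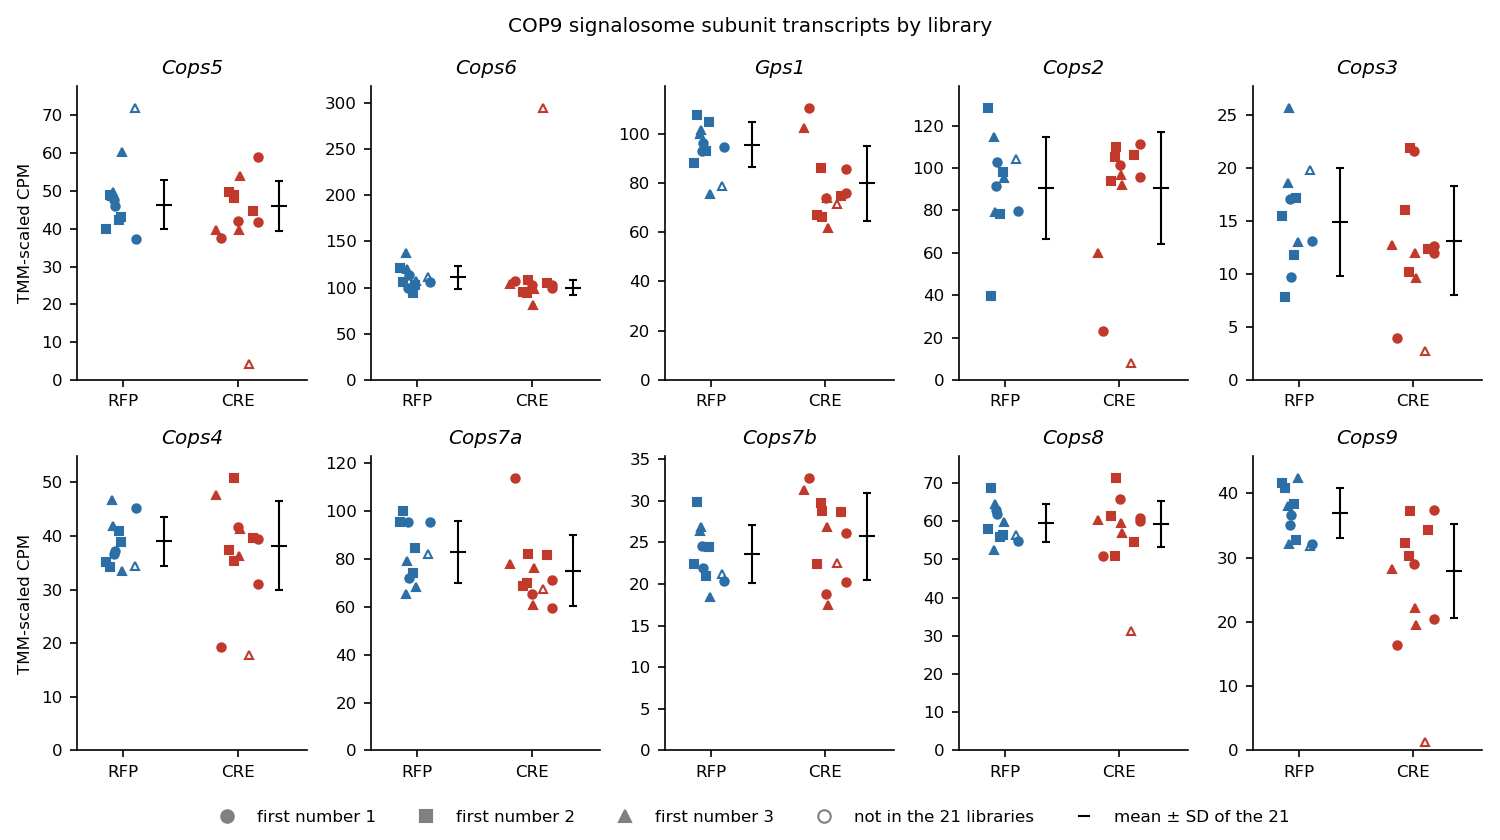
TMM-scaled CPM (y axis, from 0) of each subunit in RFP (blue) and CRE (red) libraries. One symbol is 1 library, its shape gives the first number of the library name, open symbols are the 2 libraries outside the 21, and black marks give the mean ± SD of the 21. *Cops9* is the subunit with the most CRE libraries under the whole RFP range, 7 of 11, and the open CRE symbol stands far from the others for *Cops2*, *Cops5*, *Cops6*, *Cops8* and *Cops9*.

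The sequences that tell the subunits' roles apart are those of the catalytic centre and of *Cops9*. Cops5 holds the metalloprotease site of the complex, the JAMM motif, in which the codons for 2 histidines and 1 aspartate stand at a fixed spacing (histidine, 1 residue, histidine, 10 residues, aspartate). A search of the canonical coding sequence of 21574 genes found this spacing in 2.23% of them. Among the CSN subunits it was in *Cops5* and in 0 of the other 9, Cops6 included. In the proteasome lid it was in *Psmd14*, the lid's deubiquitinase, and in 0 of the other 8 subunits, in eIF3 in 0 of 14, and in all 5 other proteases of the family that were listed. The coding stretch of *Cops5* lies in exon 3 at chr1:10104278-10104337 (minus strand, codons 135 to 154) and that of *Psmd14* in exon 7 at chr2:61595209-61595268 (plus strand, codons 110 to 129), both in GRCm39. Capitals mark the codons of the motif.
Cops5: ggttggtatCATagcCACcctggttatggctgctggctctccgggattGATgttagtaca
Psmd14: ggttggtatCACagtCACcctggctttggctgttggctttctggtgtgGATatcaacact
*Cops9* has the shortest canonical transcript of the subunits. The reading frame of its shorter, non-canonical form (ENSMUST00000097642), 174 bases or 58 codons with the stop, spans exons 1 to 3 between chr1:92565088 and chr1:92569664 on the minus strand, while the canonical form has 100 codons. The short frame is shown whole, 5′ to 3′ of the transcript, because *Cops9* had the largest fold change of the subunits, with start and stop codon in capitals.
Cops9: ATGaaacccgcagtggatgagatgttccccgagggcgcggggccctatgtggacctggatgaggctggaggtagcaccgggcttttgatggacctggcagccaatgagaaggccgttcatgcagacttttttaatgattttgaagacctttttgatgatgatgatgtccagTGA

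The MPN subunits are Cops5, which cuts Nedd8 from cullins, and Cops6, its inactive partner. *Cops5* (chr1:10094826-10108393) was between 37.6 and 58.9 CPM in CRE (median 44.6) and between 37.2 and 60.4 CPM in RFP libraries (median 46.8). The ranges lay on top of each other, with 0 CRE libraries outside the RFP range. *Cops5* had a log2 fold change of -0.03 ± 0.11 (SE, adjusted p = 0.862), whose 95% interval allows a change between -15.8% and 13.8%. *Cops6* (chr5:138159323-138163318) was between 80.6 and 108 CPM in CRE (median 103) and between 94.1 and 137 CPM in RFP libraries (median 107). Of 11 CRE libraries, 9 were below the RFP median, and 1 was below every RFP library. The log2 fold change was -0.17 ± 0.09 (SE) and missed the threshold (adjusted p = 0.146). After removal of the GC trend of every library, *Cops6* was called at a log2 fold change of -0.20 (adjusted p = 0.0423), where 37.0% of genes passed. Over all 23 libraries its estimate turned to 0.06 (adjusted p = 0.827), and CRE 3-3, outside the 21, held 295 CPM.

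Gps1 (CSN1) is a PCI subunit and, by canonical coding sequence, the longest of the complex. *Gps1* (chr11:120675098-120680190) lay between 61.9 and 111 CPM in CRE (median 74.6) and between 75.6 and 108 CPM in RFP libraries (median 95.5). Of the 11 CRE libraries, 6 were below every RFP library and 1, CRE 1-3, was above every one. The mean was 79.9 ± 15.2 CPM (SD, n = 11) in CRE and 95.5 ± 9.15 CPM (SD, n = 10) in RFP. The log2 fold change was -0.28 ± 0.11 (SE), a change of -17.5% with a 95% interval from -29.1% to -3.97%. The call depended on the libraries. It was stronger over the libraries left by the study's methods text (adjusted p = 0.00926, where 37.9% of genes passed), without 4 libraries that stand apart (0.00584, 38.1%) and with the GC trend removed (0.00164). It missed the threshold in 23 of 39 alternatives, among them all 23 libraries (0.0825), the omission of first number 2 (0.535) or 3 (0.0841), RLE size factors (0.0609), no filter on low counts (0.12) and the first or second number as a replicate block (0.0524 and 0.0672), and with single libraries left out in turn it did so for 16 of 21 (up to 0.104, without RFP 2-4).

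The exons of *Gps1* overlap those of *Dus1l*, which runs on the opposite strand, over 2728 bases, and 87.8% of the 50-base stretches of *Gps1* transcripts also occur in another gene. Genes that share such stretches include the processed pseudogene *Gm9816* besides *Dus1l*. The library kit keeps strand, but the strand setting of the counting is not given in the sources used here. The handling of reads with several positions, which bears on the stretches shared with *Gm9816*, is not given either. The count of *Gps1* is uncertain on both grounds. *Dus1l* itself had 25.4 ± 11.1 CPM (SD, n = 11) in CRE and 23.9 ± 4.78 CPM (SD, n = 10) in RFP (log2 fold change 0.07, adjusted p = 0.83). *Mcm7* shares 344 exon bases with *Cops6* on the opposite strand and had a log2 fold change of 0.07 (adjusted p = 0.772). *Cops4*, *Cops7b*, *Cops8* and *Cops9* share no exon base with another annotated gene.

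Cops2 and Cops4 reach towards the cullin and Rbx1 and sense the bound ligase. *Cops2* (chr2:125671069-125701141) lay between 23.2 and 111 CPM in CRE (median 96.9) and between 39.6 and 128 CPM in RFP libraries (median 93.3). The lowest library of each group, CRE 1-3 and RFP 2-4, stood well under the rest of its group. Its log2 fold change was -0.02 ± 0.20 (SE, adjusted p = 0.951). *Cops4* (chr5:100666122-100695671) ran from 19.2 to 50.8 CPM in CRE and from 33.4 to 46.8 CPM in RFP libraries, with a log2 fold change of -0.05 ± 0.13 (SE, adjusted p = 0.813). The signs of both estimates turned positive with the GC trend removed, at 0.12 ± 0.11 (SE, adjusted p = 0.379) and 0.05 ± 0.12 (SE, adjusted p = 0.789).

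Cops3 and Cops8 complete the horseshoe of PCI subunits together with Cops7. *Cops3* (chr11:59708231-59730714), the subunit with the fewest reads, lay between 3.95 and 21.8 CPM in CRE (median 12.4) and between 7.81 and 25.6 CPM in RFP libraries (median 14.3). It varied most among RFP libraries, with a coefficient of variation of 34.1%, where counting alone would give 7.47%. The log2 fold change of -0.20 ± 0.23 (SE, adjusted p = 0.571) leaves a range from -37.3% to 21.3%, the widest of the 10. *Cops8* (chr1:90530703-90541138) varied least among RFP libraries, with a coefficient of variation of 8.32%, and lay between 50.9 and 71.2 CPM in CRE and between 52.5 and 68.6 CPM in RFP libraries. The log2 fold change of -0.02 ± 0.09 (SE, adjusted p = 0.872) had an interval from -13.2% to 11.4%.

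Cops7a and Cops7b fill the same place in the complex, and their canonical proteins of 275 and 264 residues were identical at 56.4% of aligned positions. *Cops7a* (chr6:124935032-124944560) lay between 59.4 and 114 CPM in CRE (median 71.2) and between 65.4 and 99.8 CPM in RFP libraries (median 81.7). *Cops7b* (chr1:86510616-86537097) lay between 17.5 and 32.7 CPM in CRE (median 26.8) and between 18.5 and 29.9 CPM in RFP libraries (median 23.4). For both genes CRE 1-3 was the highest CRE library. The log2 fold changes were -0.16 ± 0.12 (SE, adjusted p = 0.33) for *Cops7a* and 0.10 ± 0.13 (SE, adjusted p = 0.608) for *Cops7b*, the only subunit with an estimate above 0. Within a library, 2.26 to 4.34 reads of *Cops7a* were counted per read of *Cops7b* in CRE (median 2.86) and 2.49 to 4.70 in RFP (median 3.50). The means of the ratio were 3.00 ± 0.658 (SD, n = 11) and 3.56 ± 0.63 (SD, n = 10), a description with overlapping ranges. Since the longer *Cops7b* transcript collects more reads per molecule, the ratio of counts is not one of molecules.

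Cops9, the small acidic subunit, was the member with the largest estimated difference. *Cops9* (chr1:92564867-92569707) lay between 16.3 and 37.4 CPM in CRE (median 29.0) and between 32.1 and 42.4 CPM in RFP libraries (median 37.3). Of 11 CRE libraries, 7 were below every RFP library, 10 were below the RFP median, and 0 were above the RFP range. The mean was 28.0 ± 7.32 CPM (SD, n = 11) in CRE and 37.0 ± 3.91 CPM (SD, n = 10) in RFP. Its log2 fold change was -0.42 ± 0.14 (SE, adjusted p = 0.0241), a change of -25.3% with a 95% interval from -38.9% to -8.78%. The estimate stayed below 0 in all 39 alternatives run, between -0.54 and -0.33, and lost the call in 7 of them, among them all 23 libraries (adjusted p = 0.108), counts summed per first number (0.0713) and the omission of first number 1, 2 or 3 (0.0584, 0.0751 and 0.143). *Cops9* was also the gene with the most deviant value in CRE 3-3, at 2 counts in a library that held 1546796 counts in all.

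**Figure D2:**
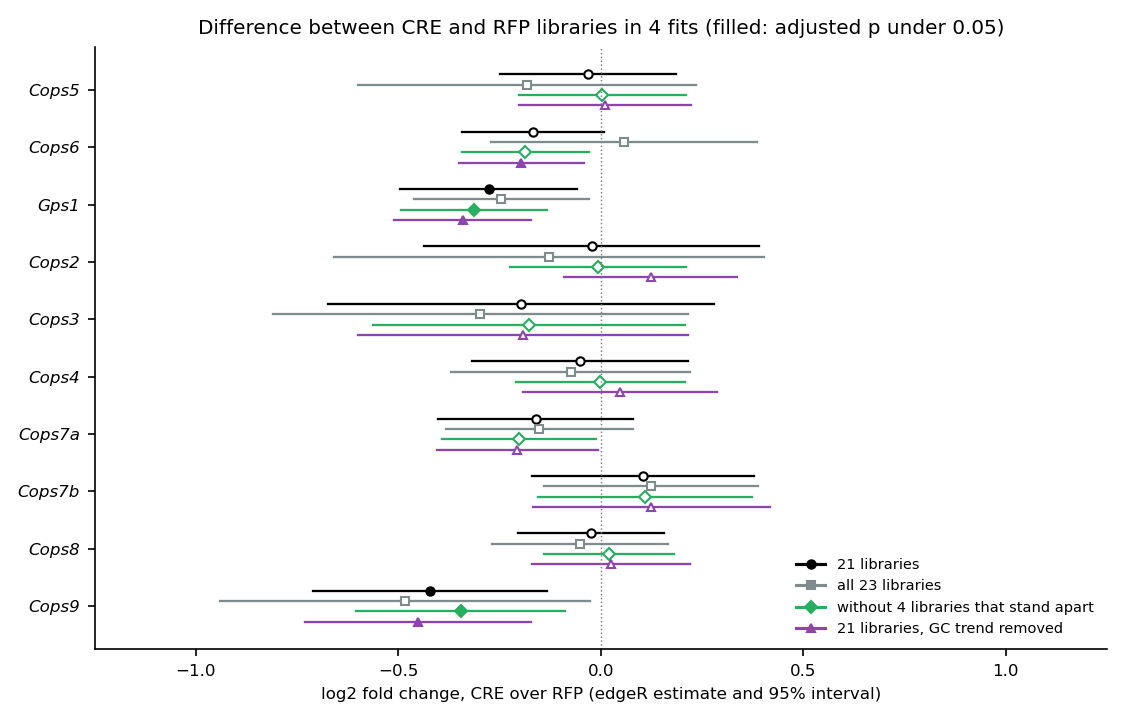
edgeR log2 fold changes of CRE over RFP (x axis) with 95% intervals for the 10 subunits in 4 fits, where filled symbols mark an adjusted p under 0.05. In the 21 libraries (black) the filled symbols are *Gps1* at -0.28 and *Cops9* at -0.42, and over all 23 libraries (grey) there are 0.

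Within the libraries that share the first number of their names, *Cops9* was lower in CRE in 3 of 3 comparisons, with log2 ratios of mean CPM of -0.42, -0.20 and -0.68 for numbers 1, 2 and 3. All 3 CRE libraries of number 3 were below its 3 RFP libraries. *Gps1* had ratios of -0.13, -0.42 and -0.22, and *Cops6* of -0.04, -0.07 and -0.37. *Cops7b* was higher in 3 of 3, by 0.14, 0.17 and 0.08. The other 6 subunits changed sign or stood at 0 in one of the comparisons, and *Cops3* ranged most widely, from 0.21 in number 2 to -0.74 in number 3. *Cops8* stayed nearest to 0, with -0.01, -0.01 and 0.00.

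**Figure D3:**
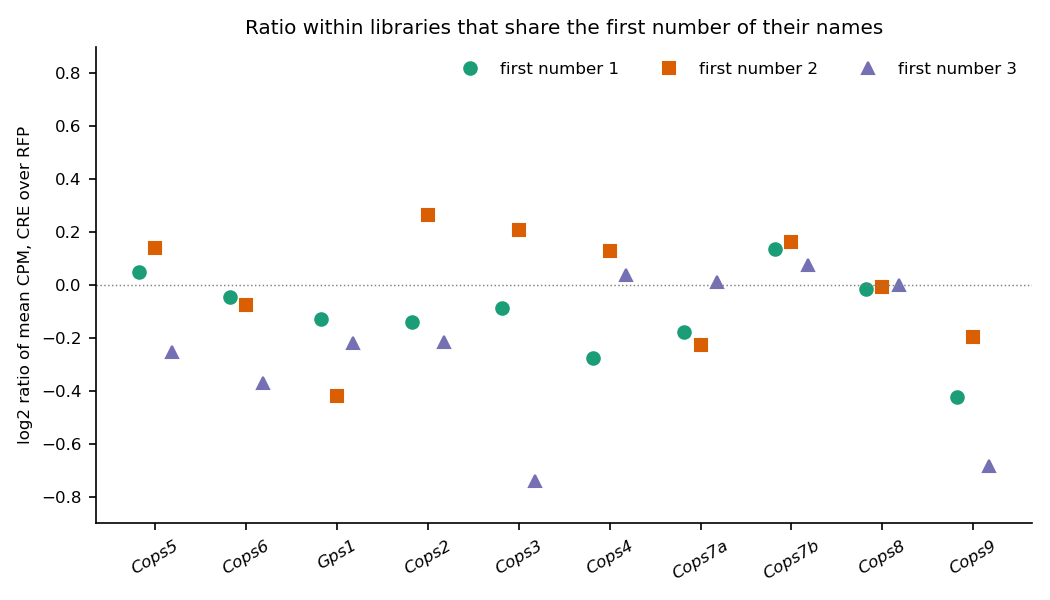
Log2 ratio of mean CPM, CRE over RFP (y axis), for each subunit within the libraries of first number 1 (circles), 2 (squares) and 3 (triangles). *Gps1*, *Cops6* and *Cops9* lie below 0 in all 3 and *Cops7b* above 0 in all 3.

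Levels were compared between subunits per length, as TMM-scaled RPKM (CPM per kilobase) in RFP libraries. With the union of a gene's exons as length, *Cops6* was highest at 37.6 ± 4.25 (SD, n = 10), followed by *Gps1* (30.4 ± 2.91), *Cops9* (24.7 ± 2.61), *Cops2* (18.8 ± 5.00), *Cops7a* (17.7 ± 2.74), *Cops8* (12.5 ± 1.04) and *Cops5* (12.1 ± 1.68). *Cops7b* (4.27 ± 0.626), *Cops3* (3.46 ± 1.18) and *Cops4* (3.39 ± 0.398) were lowest. The ranges over libraries of neighbours in this order overlapped, except between *Cops5* and *Cops7b*. The order depends on the length. *Cops4* has 51 annotated transcripts whose exons join to 11518 bases, against 1810 bases of its canonical transcript, and by the latter its level was 21.6 ± 2.53 in place of 3.39. By canonical transcripts *Cops9* was highest (56.7 ± 5.99) and *Cops5* stood at 26.8 ± 3.74, while *Cops3* (8.89 ± 3.03) and *Cops7b* (4.55 ± 0.667) were lowest.

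**Figure D4:**
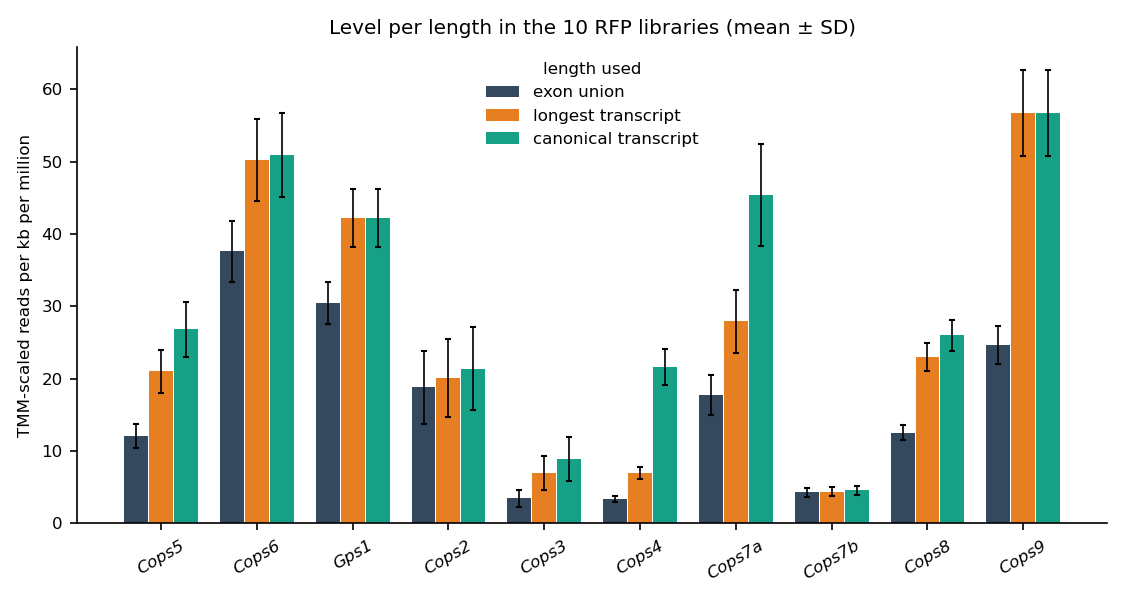
TMM-scaled RPKM (y axis, from 0) of the 10 subunits in the 10 RFP libraries, as mean and SD, with 3 definitions of gene length. *Cops4* moves from 3.39 with the union of exons to 21.6 with the canonical transcript, and *Cops7b* stays under 5 with each.

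The libraries CRE 1-3, CRE 3-3 and RFP 2-4 stood apart from the other 20 by levels that follow the GC content of genes (Spearman correlation of 0.470 to 0.730 across genes, against at most 0.198) and by a mitochondrial share of counts of 0.261% to 3.43%, against 7% or more. CRE 3-3 also held few counts, 1546796 in all, against 7635735 or more in each of the other 20. Its values for *Cops2*, *Cops5* and *Cops9* rest on 12, 6 and 2 counts. In RFP 3-2 the 18S rRNA copy *Rn18s-rs5* took 24.2% of reads. The CSN subunits took part in the GC pattern, though not each of them. *Cops2*, with 38.4% GC the poorest, was at 23.2 CPM in CRE 1-3, 8.19 CPM in CRE 3-3 and 39.6 CPM in RFP 2-4, while the other 20 libraries held 59.7 to 128 CPM. *Gps1*, with 55.0% GC the richest, was at 111 CPM in CRE 1-3 and 108 CPM in RFP 2-4, above the 61.9 to 105 CPM of the other 20, while in CRE 3-3 it was at 71.6 CPM, below their median of 85.9 CPM. *Cops9*, with 50.4% GC, went against the pattern in both CRE libraries. It was at 16.3 CPM in CRE 1-3, its lowest value in the 21, and at 1.36 CPM in CRE 3-3. The other 20 held 19.5 to 42.4 CPM of *Cops9*, and RFP 2-4 held 40.9 CPM. Over the 10 subunits, the Spearman correlation of GC content with the deviation from the other 20 was 0.76 in CRE 1-3, 0.772 in RFP 2-4 and 0.407 in CRE 3-3, a description over genes of single libraries. CRE 1-3 and RFP 2-4 were among the 21. Without all 4 libraries, *Gps1* and *Cops9* were again the subunits called, with log2 fold changes of -0.31 and -0.35, and within the remaining libraries 10 CRE were compared with 9 RFP.

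**Figure D5:**
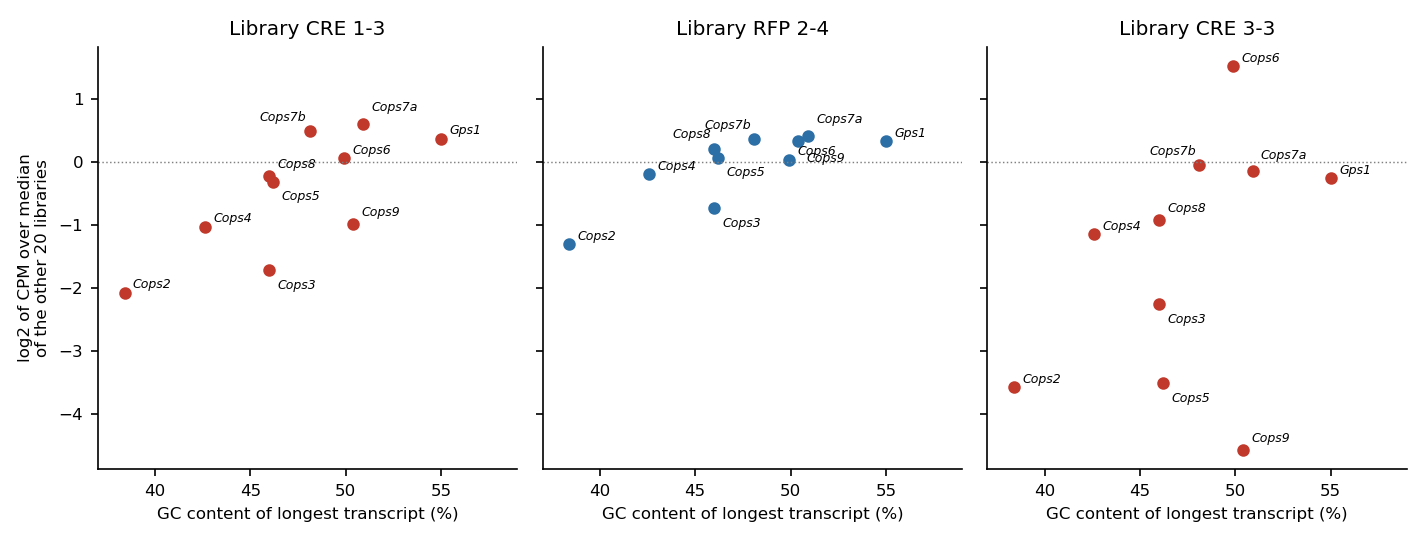
Log2 of a subunit's CPM over its median in the other 20 libraries (y axis) against the GC content of its longest transcript (x axis, %) in the 3 libraries whose levels follow GC content. *Cops2* lies at -2.07, -1.30 and -3.57 in CRE 1-3, RFP 2-4 and CRE 3-3, and *Cops6* at 1.51 in CRE 3-3.

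Markers of cell types moved with the groups as well. Of 6 neuronal markers, 4 were lower and 0 higher in CRE, and their summed level ran from 2400 to 3950 CPM in CRE and from 4110 to 4950 CPM in RFP libraries. Astrocyte markers summed to 1640 to 5280 CPM in CRE and 3690 to 7940 CPM in RFP (4 of 9 lower, 2 higher), and oligodendrocyte lineage markers to 425 to 1910 and 647 to 1870 CPM (5 of 8 lower, 0 higher). Of 3 GABA neuron markers 1 was higher, with sums of 581 to 1460 CPM in CRE and 821 to 1640 CPM in RFP. All 5 genes of dividing cells were lower, with sums of 1.91 to 146 CPM against 135 to 244 CPM. Microglial markers summed to at most 7.70 CPM in any of the 21 libraries (1 of 2 tested higher), and endothelial and mesenchymal markers to between 14 and 384 CPM in CRE and 17.1 to 137 CPM in RFP (1 of 6 tested higher). No marker was at 0 in all 21 libraries. The part of these shifts in the differences of *Cops9* and *Gps1* was not tested.

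The partners of the CSN and the other enzymes that release Nedd8 gave 1 call among 7 genes. *Cand2*, a relative of the exchange factor Cand1, was higher, at 21.8 ± 6.75 CPM (SD, n = 11) in CRE and 15.1 ± 3.70 CPM (SD, n = 10) in RFP (log2 fold change 0.50 ± 0.18 SE, adjusted p = 0.0327), a call lost with counts summed per first number (adjusted p = 0.062). Its exons overlap *Rpl32* on the opposite strand, which had a log2 fold change of 0.07 (adjusted p = 0.689). *Cand1*, which exchanges substrate receptors on cullins free of Nedd8, was the most abundant of the list, at 214 ± 24.7 CPM in CRE (SD, n = 11) and 206 ± 19.1 CPM in RFP (SD, n = 10), with a log2 fold change of 0.04 (adjusted p = 0.777). *Senp8*, the other dedicated deneddylase, had a log2 fold change of -0.19 ± 0.28 (SE, adjusted p = 0.666), and *Uchl3*, a hydrolase that can trim the Nedd8 precursor, of -0.24 ± 0.17 (SE, adjusted p = 0.308). *Usp15*, a deubiquitinase that associates with the CSN, missed the threshold at -0.33 ± 0.19 (SE, adjusted p = 0.216), and passed it with the GC trend removed (adjusted p = 0.0118) and without the 4 libraries (0.0151). *Nub1*, which lowers the amount of Nedd8, had 0.12 (adjusted p = 0.518), and *Glmn*, a protein that binds Rbx1, had -0.23 (adjusted p = 0.724) at a mean of 2.97 CPM in CRE and 3.46 CPM in RFP.

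On the conjugating side, 2 of 11 neddylation enzymes were lower and 0 higher in CRE, in edgeR over the 21 libraries. Their median log2 fold change was 0.04. *Dcun1d4*, which helps to transfer Nedd8 to cullins, fell by 0.65 on the log2 scale (SE 0.14, adjusted p = 0.00092), from 140 ± 19.5 CPM (SD, n = 10) in RFP to 90.8 ± 21.2 CPM (SD, n = 11) in CRE. *Rbx1*, the RING subunit of most cullin ligases, fell by 0.53 (SE 0.13, adjusted p = 0.00345), from 93.8 ± 7.36 CPM to 65.8 ± 16.6 CPM. With counts summed per first number both *Dcun1d4* (adjusted p = 0.000561) and *Rbx1* (0.00954) were called. *Dcun1d3* (log2 fold change 0.28, adjusted p = 0.117 over the 21 libraries) was called higher in other edgeR fits. These used the libraries left by the methods text (0.0269), left out the 4 libraries (0.0326) or removed the GC trend (0.0314). In sums per first number *Dcun1d3* was not called (0.173). Of 8 cullins, *Cul4a* was the one called in edgeR over the 21 libraries, where it fell by 0.29 (adjusted p = 0.0281). *Cul4a* lost the call over all 23 libraries (0.106), over those left by the methods text (0.0874) and in sums per first number (0.0858). The cullin called in these fits was *Cul7*, higher, over all 23 libraries (0.0466). In the other 2 it was *Cul9*, lower (0.00249 and 0.031). DESeq2 called 2 cullins, *Cul4a* and *Cul9*, and edgeR called 3 with the GC trend removed, with *Cul9* (0.00701) lower and *Cul7* (0.00479) higher besides *Cul4a*, and 3 without the 4 libraries, with *Cul5* and *Cul9*. The cullin list had a median of -0.11.

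In the proteasome lid 1 of 9 genes was higher and 0 were lower, with a median of -0.04, and the gene was *Psmd11*, a PCI subunit, at 86.9 ± 13.6 CPM (SD, n = 11) in CRE and 62.2 ± 6.52 CPM (SD, n = 10) in RFP (log2 fold change 0.46 ± 0.10 SE, adjusted p = 0.0009). *Psmd11* was also called with counts summed per first number (adjusted p = 0.0228). Over the libraries left by the methods text edgeR called *Psmd3* besides, lower (adjusted p = 0.0464, against 0.65 over the 21 libraries). *Psmd14*, whose motif matches that of *Cops5*, had 33.6 ± 11.7 CPM (SD, n = 11) and 32.0 ± 6.07 CPM (SD, n = 10), a log2 fold change of 0.05 (adjusted p = 0.884). In eIF3 0 of 14 genes passed in edgeR, with a median of 0.11, and the smallest p was that of *Eif3f*, an MPN subunit (log2 fold change 0.32, adjusted p = 0.111), the only one with an unadjusted p under 0.05, and DESeq2 called 0 as well. Over all 23 libraries edgeR called *Eif3f* (adjusted p = 0.03). Of 5 other JAMM proteases 0 passed in edgeR, 2 had an unadjusted p under 0.05 and DESeq2 called 1 (*Brcc3*), with a median of -0.06. With the GC trend removed, without the 4 libraries and over those left by the methods text, edgeR called 3 of the 5, *Brcc3* and *Mpnd* lower and *Mysm1* higher, with adjusted p from 0.000216 to 0.0227. The smallest p among these was that of *Brcc3*, a deubiquitinase of the same family, with a log2 fold change of -0.81 ± 0.32 (SE, adjusted p = 0.0548). In edgeR over the 21 libraries, each of these lists of enzymes and complexes had a share of calls below the 30.2% of genes tested. This did not hold in every alternative. In the 3 fits just named, 3 of 5 proteases passed, where 37.0% to 38.1% of all genes did. With counts summed per first number 2 of 5 proteases passed, where 22.8% of all genes did. With the GC trend removed 3 of 8 cullins passed, a share just above the 37.0% of all genes.

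The promoters of several subunits share a short sequence. In the RefSeq promoters of GRCm38.p6, from 250 bases before to 50 bases after a gene's start, the letters CCGGAAG, which hold the GGAA core of ETS factor sites, occurred on either strand for 6 of the 9 subunits with an entry. These were *Gps1*, *Cops2*, *Cops3*, *Cops7a*, *Cops8* and *Cops9*, while *Cops4*, *Cops6* and *Cops7b* had no match in this window. Of all 27025 genes with an entry 9.93% held the letters, and of 17491 protein-coding genes 12.9%. The proteasome lid held them in 4 of 7 promoters and eIF3 in 5 of 10. The motif was picked after the subunits' promoters had been read, and a match is a description. The windows below are those of the 2 called subunits and of *Cops8*, which varied least among RFP libraries, on the gene's strand, with the motif or its reverse complement in capitals.
Cops9, GRCm38.p6 chr1:92641970-92642010: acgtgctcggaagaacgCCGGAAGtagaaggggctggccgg
Gps1, GRCm38.p6 chr11:120784256-120784296: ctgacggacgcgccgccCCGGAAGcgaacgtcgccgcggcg
Cops8, GRCm38.p6 chr1:90603280-90603320: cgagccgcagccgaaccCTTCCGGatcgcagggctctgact
Both called subunits and 4 that were not called hold the motif. The motif shown for *Cops9* begins 45 bases before one annotated start and 8 bases before another. A further copy begins 25 bases before the former and 12 bases after the latter. The motif of *Gps1* begins 227 bases before one of its annotated starts and 3 bases after another.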

How the data were processed

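RNA of 23 libraries was prepared by the authors with Illumina Stranded mRNA Prep, demultiplexed with bcl2fastq 2.20.0.422, aligned with STAR 2.7.8a to GRCm39 (Ensembl release 110, 2 mismatches allowed in 50 bases) and counted per gene with featureCounts 1.5.0-p1, versions as in the submitters' processing notes. The authors deposited whole-number counts per gene, without normalization. The strand setting and the handling of reads with several positions are not given in the sources used here. Groups came from the labels. The 21 libraries are those of the study's count table, without CRE 3-3 and RFP 3-2, whereas the methods text removes CRE 1-3 and CRE 3-3. The members, gene lists and alternatives were chosen with earlier results of these data known.

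In R 4.3.3, edgeR 4.0.16 (filterByExpr, TMM, estimateDisp, robust glmQLFit, glmQLFTest) tested all genes that passed the filter, with Benjamini-Hochberg adjustment and a threshold of 0.05. CPM used TMM factors over all 23 libraries. DESeq2 1.42.0 and other sets of libraries, scalings, filters, blocks, sums per first number and a GC offset were alternatives, 39 in all, of which 4 were added after seeing the data. The fits were tested on simulated counts first. Intervals are 95% intervals of the fit. No libraries of a group agreed within sampling noise (chi-square per degree of freedom at least 10.9 over 121 pairs). Gene positions came from GENCODE M39, which named 56323 of 56941 identifiers, and lengths and GC content from its transcripts. Named genes are *Nedd8*, the members, the CSN partners and, of each other list, up to 3 called genes with the smallest p or, with none called, the gene with the smallest p. *Dus1l*, *Mcm7* and *Rpl32* (overlapping exons), *Gm9816* (shared stretches), *Psmd14* (shared motif), *Rn18s-rs5*, *Cul5*, *Cul7*, *Cul9*, *Dcun1d3*, *Psmd3*, *Mpnd* and *Mysm1* (called in alternatives) fall outside this rule and were chosen after values were seen.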

Additional observations from a re-analysis of the deposited data

Results flagged for a closer look

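*Brcc3* was listed at 4.36 CPM in RFP 2-4, far below the other RFP libraries, whose gap to it passed Dixon's critical value for 10 samples. It was the only such value among 26 tested, and chance alone gives about 1 in 20. RFP 2-4 is one of the libraries whose levels follow GC content. The part of that trend in this value was not tested.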

How the results depend on the processing

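Besides the 21 libraries, 39 alternatives were run. In 35 of them the subunits called were *Gps1*, *Cops9*, both or neither, and the other 4 added *Cops6* or *Cops7a*. The estimates of *Gps1*, *Cops7a*, *Cops9* (below 0) and *Cops7b* (above 0) kept their sign in all 39. The number of subunits called was 0 over all 23 libraries, without first number 2, without first number 3 and with no filter on low counts. It was 1 without first number 1, with RLE size factors and with counts summed per first number. The sums gave 1 on the 21 libraries as well as without the 4 libraries that stand apart. Without the 4 libraries and with no summing it was 2. It was 4 with the GC trend removed from the libraries left by the methods text. Leaving out 1 library at a time gave 1 to 3, and *Gps1* lost its call in 16 of the 21. All genes called numbered 4370, 2114 without first number 2 and 6920 with no filter, where the median log2 fold change over all genes shifted to 0.144, and 4031 to 5507 with 1 library left out.
The first or second number of the names, taken as a replicate block, left 1 subunit called (*Cops9*) with either number. Correlations of deviations between same-numbered CRE and RFP libraries were 0.004 to 0.154 for the first and -0.252 to 0.092 for the second number. Between CRE and RFP libraries of different first numbers they ran from -0.203 to 0.167. For the 9 pairs of a CRE and an RFP library that share both numbers they ran from -0.067 to 0.119, without pairs of different numbers to set beside them. With only 3 and 4 same-numbered values besides, these correlations cannot decide whether the numbers pair the libraries.
Uncalled estimates changed sign as follows, with the cause not tested. *Cops6* was 0.057 over all 23 libraries and 0.08 there with the GC trend removed. *Cops2* was 0.082 and *Cops4* 0.052 and *Cops8* 0.022 over the libraries left by the methods text. Without the 4 libraries, *Cops5* was 0.004 and *Cops8* 0.021, and with the replicate block added 0.014 and 0.023. Sums per first number gave *Cops2* 0.007, and without the 4 libraries *Cops2* 0.012 and *Cops8* 0.012. Without first number 1, *Cops2* was 0.056 and *Cops4* 0.077. Without first number 3, *Cops2* was 0.027, *Cops3* 0.022 and *Cops5* 0.05. With the GC trend removed, *Cops2* was 0.123, *Cops4* 0.047, *Cops5* 0.01 and *Cops8* 0.026. With the replicate block added these were 0.111, 0.047, 0.011 and 0.017. GC removal over all 23 libraries gave *Cops2* 0.066, *Cops4* 0.08 and *Cops8* 0.033, and over the libraries of the methods text *Cops2* 0.061 and *Cops4* 0.008. With 1 library left out, *Cops2* ran from -0.093 to 0.081, *Cops4* from -0.135 to 0.019, *Cops5* from -0.103 to 0.015 and *Cops8* from -0.086 to 0.017.
Levels per length in RFP (RPKM) moved with the length used, by the longest and by the canonical transcript in that order, to 42.2 and 42.2 for *Gps1*, 6.94 and 8.89 for *Cops3*, 7.02 and 21.6 for *Cops4*, 21 and 26.8 for *Cops5*, 50.2 and 50.9 for *Cops6*, 27.9 and 45.4 for *Cops7a*, 23 and 26 for *Cops8* and 56.7 and 56.7 for *Cops9*, and by less than 1 SD for *Cops2* and *Cops7b*.
The intervals of *Cops2* and *Cops3* are the widest. Their spread between RFP libraries (coefficients of variation of 26.6% and 34.1%) was well above that of counting alone (3.06% and 7.47%). Without the 4 libraries that stand apart it was 17.7% and 29.9%. The part of depth in the width of the intervals was not tested.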
